A study of Homo sapiens with 6 samples.

Results

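The 44 genes described here form the NF-kB pathway with the cytokines and chemokines it is tied to, and were picked by symbol from a list. The list was chosen with earlier results of these data known. They comprise 5 NF-kB subunits, 8 IkB proteins and other inhibitors, 8 genes of TNF receptor signalling, 9 chemokines, 7 cytokines, 5 inducible targets and 2 genes of signalling through gp130. Each symbol was found in 1 row of the deposited table, which has 60612 rows. RNA was sequenced from SNU-368, an established human hepatocellular carcinoma line, in 3 libraries with a short hairpin RNA labelled shTFAM and 3 libraries with a control hairpin labelled shCtrl. TFAM is the factor that packages mitochondrial DNA and starts its transcription, and the study asks what its loss does in liver cancer cells. The design text counts the 6 samples as cell lines, all of them SNU-368 with 1 of the 2 hairpin labels. The labels name no drug, cytokine or time point. They do not say whether replicates are separate cultures, clones or hairpins, so the p-values below measure the spread between these libraries, which may be technical.

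NF-kB is a family of dimeric transcription factors that IkB proteins hold inactive in the cytoplasm. Signals from TNF receptors, interleukin-1 receptors or pattern sensors run through ubiquitin ligases and the IkB kinase complex, IkB is degraded, and the dimers enter the nucleus and bind kappaB sites. Their targets include chemokines and cytokines that call in leukocytes, survival genes, and inhibitors such as NFKBIA and TNFAIP3 that shut the pathway off again. In liver, this pathway and interleukin-6 acting through gp130 and STAT3 link inflammation to acute-phase protein synthesis, regeneration and tumour growth.

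The libraries held 46263488 to 61058282 counts in shTFAM and 43286024 to 50910536 counts in shCtrl, so 3 counts, used as the detection floor, equal 0.0519 to 0.0677 CPM, counts per 1000000 after scaling of the library sizes by TMM factors. TFAM itself stood at 63.7, 65.0 and 56.7 CPM in shTFAM and at 82.2, 76.2 and 89.6 CPM in shCtrl, a log2 fold change of -0.42 (edgeR, SE 0.107, adjusted p = 0.0377). Its groups did not overlap, but leaving out any 1 of the 6 libraries brought its adjusted p to between 0.0676 and 0.0948, with log2 fold changes of -0.48 to -0.36. Transcripts of mitochondrial DNA made up 7.91% to 10.7% of counts in shTFAM and 10.1% to 14.2% in shCtrl. The first principal component (46.0% of variance) separated the groups, and on the second (16.6%) the third shCtrl library stood apart from the other two. Of 12 hepatocyte markers, ALB, APOA1 and most others had no count in any library, while the keratins KRT8 and KRT18 made up nearly all of a summed level of 269 to 275 FPKM in shTFAM and 225 to 270 FPKM in shCtrl. The defining leukocyte markers PTPRC, CD163, LYZ and TYROBP had no count in any library. The summed level of the 8 myeloid markers was 19.1 to 27.5 FPKM in shTFAM and 8.91 to 10.7 FPKM in shCtrl, carried by CD68 and CSF1R, which were both called higher and were the 2 of the 8 that reached the testing minimum. Summed levels were 0.991 to 1.46 FPKM in shTFAM and 0.563 to 0.766 FPKM in shCtrl for 6 lymphocyte markers, 0.444 to 0.700 and 0.386 to 0.531 FPKM for 5 endothelial markers, 37.0 to 40.9 and 24.9 to 38.3 FPKM for 6 fibroblast markers, and 145 to 230 FPKM in shTFAM and 78.7 to 144 FPKM in shCtrl for 4 cholangiocyte markers, nearly all of it KRT7. The part of these markers in the results below was not tested.

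By mean FPKM, a level per transcript length and depth, 11 of the 44 stood at 10 or more, 22 between 0.5 and 10, and 11 under 0.5. IER3, an immediate-early gene that protects against apoptosis, led at 130 ± 16.8 FPKM in shTFAM and 75.5 ± 15.9 FPKM in shCtrl (SD, n = 3 each). SOCS3, the feedback inhibitor of gp130 signalling, followed at 55.8 ± 7.93 FPKM in shTFAM and 43.01 ± 9.18 FPKM in shCtrl (SD, n = 3 each). TNFRSF1A, TNFRSF12A, TNFRSF10B and TNFAIP2 came next, at means over all libraries of 24.5 to 28.9 FPKM, and their ranges over libraries overlap. RNA of every listed cytokine and chemokine stood under 10 FPKM in mean over all libraries. IL18 was the highest cytokine at 9.92 ± 1.37 FPKM in shTFAM and 7.07 ± 0.680 FPKM in shCtrl (SD, n = 3 each). CXCL2 was the highest chemokine at 2.29 ± 0.380 FPKM in shTFAM and 2.41 ± 0.917 FPKM in shCtrl (SD, n = 3 each). By mean FPKM, IL18 stood at percentile 70.0 of all tested rows and CXCL2 at percentile 34.7. CXCL1 and CX3CL1 had no count in any library.

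**Figure D1:**
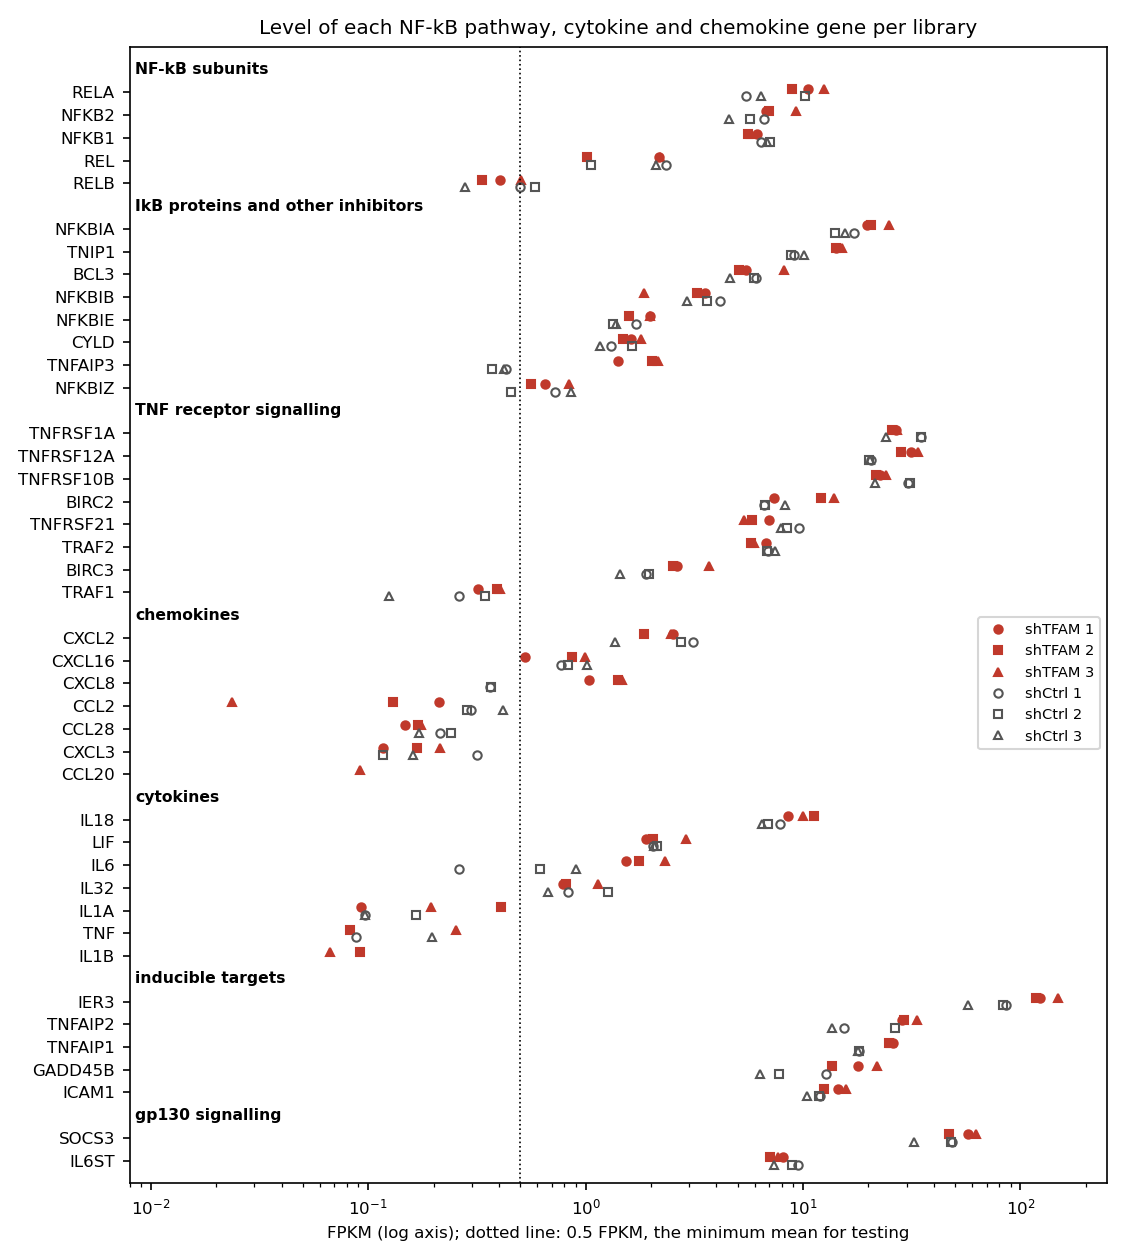
Level of each gene in each library, in FPKM on a log axis, grouped by role, with filled symbols for shTFAM, open symbols for shCtrl and the testing minimum of 0.5 FPKM as a dotted line; values under 0.01 FPKM are not drawn, and CXCL1 and CX3CL1, without counts, are left out. IER3 and SOCS3 lie furthest right, and most chemokines lie left of the line.

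Many of the promoters hold the letters that NF-kB is known to bind. The 250 bases before the transcript start, taken from RefSeq on GRCh38.p14, were available for 34 of the 44 genes. They were searched on both strands for GGNNTTTCC, the core of a kappaB site with N for any base. The motif stood in 20 of the 34 (58.8%), against 6.70% of all 27305 gene symbols with a promoter and 8.03% of the 9428 such genes that were tested. TGANTCA, the letters bound by AP-1, which often acts beside NF-kB, stood in 3 of the 34 (8.82%) and in 8.06% of all symbols. The list holds known NF-kB targets, so its share of motifs is a description of that choice.

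The promoters of 6 genes that hold a match are given here, with the kappaB-like letters in capitals. All run from 250 bases to 1 base before the start and are read on the strand of the gene. Only promoters with a match were printed, at the first start by position that holds one. A match in each is thus by construction. Of the 6, CXCL8 was not called. TNFAIP1 and GADD45B were called and had a promoter, but it holds no match and is not shown. The TNIP1 start lies inside its row, which ends at chr5:151093577. TNFAIP3 (chr6:137867009-137867258, plus strand) and NFKBIA (chr14:35404750-35404999, minus strand) each hold 2 matches. TNIP1 (chr5:151081035-151081284, minus), BIRC3 (chr11:102317234-102317483, plus), IL6 (chr7:22726950-22727199, plus) and CXCL8 (chr4:73740319-73740568, plus) each hold 1.
TNFAIP3: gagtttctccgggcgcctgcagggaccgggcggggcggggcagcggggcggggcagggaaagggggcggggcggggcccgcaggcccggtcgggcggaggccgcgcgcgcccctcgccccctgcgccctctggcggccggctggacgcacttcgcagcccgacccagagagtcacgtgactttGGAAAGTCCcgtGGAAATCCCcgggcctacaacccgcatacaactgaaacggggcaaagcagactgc
NFKBIA: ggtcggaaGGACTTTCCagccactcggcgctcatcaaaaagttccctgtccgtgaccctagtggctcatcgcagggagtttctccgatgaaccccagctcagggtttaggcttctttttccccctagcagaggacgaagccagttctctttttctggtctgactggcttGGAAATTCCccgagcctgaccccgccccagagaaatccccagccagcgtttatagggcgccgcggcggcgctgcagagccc
TNIP1: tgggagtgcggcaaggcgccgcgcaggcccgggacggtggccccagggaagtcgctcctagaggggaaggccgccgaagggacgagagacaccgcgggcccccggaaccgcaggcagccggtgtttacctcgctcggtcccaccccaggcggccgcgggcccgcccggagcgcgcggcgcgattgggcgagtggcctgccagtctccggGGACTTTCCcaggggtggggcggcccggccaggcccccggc
BIRC3: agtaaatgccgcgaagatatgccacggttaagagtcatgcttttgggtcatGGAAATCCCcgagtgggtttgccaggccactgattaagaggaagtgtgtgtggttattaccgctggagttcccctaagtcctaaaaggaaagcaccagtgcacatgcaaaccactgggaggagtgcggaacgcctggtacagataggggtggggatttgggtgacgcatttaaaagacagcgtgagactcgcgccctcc
IL6: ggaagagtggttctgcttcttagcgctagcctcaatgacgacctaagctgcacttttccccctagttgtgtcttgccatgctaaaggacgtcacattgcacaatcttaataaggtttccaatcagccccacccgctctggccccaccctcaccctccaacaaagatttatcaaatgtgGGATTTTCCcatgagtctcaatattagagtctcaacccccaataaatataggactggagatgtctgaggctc
CXCL8: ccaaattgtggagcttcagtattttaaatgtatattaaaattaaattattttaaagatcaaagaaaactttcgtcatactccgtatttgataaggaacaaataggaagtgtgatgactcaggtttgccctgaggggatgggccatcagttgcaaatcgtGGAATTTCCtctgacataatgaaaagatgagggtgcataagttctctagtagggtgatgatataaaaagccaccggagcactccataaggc

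The chemokines CXCL1, CXCL2 and CXCL3 are shown because their promoters are near copies while their RNA levels differed, with means over all libraries of 2.35 FPKM for CXCL2 and 0.182 FPKM for CXCL3 and no count for CXCL1. The stretch from 100 to 31 bases before the start holds 2 kappaB-like matches in each, at chr4:73869293-73869362 (plus) for CXCL1, chr4:74099226-74099295 (minus) for CXCL2 and chr4:74038720-74038789 (minus) for CXCL3.
CXCL1: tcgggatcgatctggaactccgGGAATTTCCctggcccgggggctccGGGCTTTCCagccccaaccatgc
CXCL2: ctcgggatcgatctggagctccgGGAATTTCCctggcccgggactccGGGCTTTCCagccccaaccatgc
CXCL3: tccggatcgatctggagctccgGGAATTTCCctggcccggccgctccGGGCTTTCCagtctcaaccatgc
Over these 70 bases, CXCL1 matched CXCL2 at 67 aligned bases and CXCL3 at 64, and CXCL2 matched CXCL3 at 64.

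Among promoters of the listed genes, the motif stood in 5 of the 7 matched genes called higher and in 12 of the 19 matched genes that were tested and not called. Over the whole table, 14.1% of tested genes with the motif were called higher, against 13.0% of all 9428 tested genes with a promoter.

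**Figure D2:**
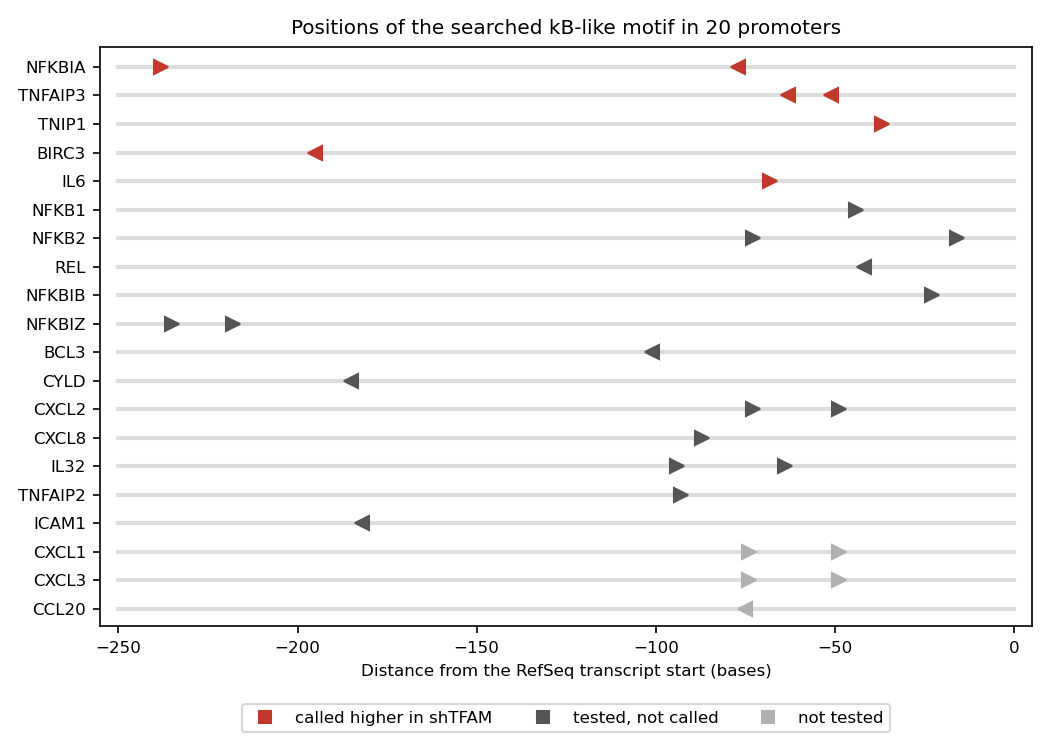
Positions of GGNNTTTCC matches in the 250 bases before the RefSeq start of the 20 genes that hold one; the horizontal axis is the distance from the start in bases, arrowheads show the strand and colours show the call. Matches of called and uncalled genes lie over the same range, many of them within 100 bases of the start; where a gene has several starts, the matches of each are drawn together.

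TFAM knockdown was accompanied by higher RNA of 3 of the 8 pathway inhibitors, 3 of the 5 inducible targets, TNFRSF12A, BIRC3 and the cytokines IL6 and IL18. No tested NF-kB subunit or chemokine was called, and 6 of the 9 chemokines were too low to be tested. Of the 44 genes, 33 reached a mean of 0.5 FPKM over all 6 libraries and were tested with edgeR's quasi-likelihood test. The p-values were adjusted by Benjamini-Hochberg over the 14708 rows tested. TNFAIP3 and CXCL8 lay under that minimum in shCtrl (means of 0.407 and 0.244 FPKM) and passed it only through their shTFAM values. With no filter on low values, edgeR still called TNFAIP3 (adjusted p = 0.00253). At an adjusted p of at most 0.05, 10 of the 33 (30.3%) were higher in shTFAM, against 11.3% of all tested rows, and 0 were lower, against 6.59%. In either direction 17.9% of all tested rows were called. Since the genes were chosen with earlier results of these data known, these shares describe the list and do not test the pathway. At an unadjusted p under 0.05, 17 were higher, against 18.7% of all tested rows, and 1 was lower, against 16.1%. DESeq2 called 13 higher, against 14.8% of all tested rows, and 1 lower, against 11.4%. The median log2 fold change of the 33 was 0.41, with a range of -0.43 to 2.48, and that of all tested rows was -0.02. In bulk RNA, fewer cells expressing a gene and less RNA per cell cannot be told apart. In CPM, all shTFAM libraries stood above all shCtrl libraries for 15 of the 33 (45.5%; 22.1% of all tested rows) and below for 1 (3.03%; 20.1% of all tested rows).

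The third library of each group often held the extreme value. The third shTFAM library was the highest of its group in 28 of the 33 tested genes (84.8%), against 38.3% of all tested rows, and the third shCtrl library was the lowest of its group in 20 (60.6%), against 40.1%. Without both of them, 6 genes were called higher (TNFAIP3, TNIP1, TNFRSF12A, CXCL8, TNFAIP1 and IER3), 2 lower (TNFRSF1A and TNFRSF10B), and the median of the 33 was 0.21. In that fit 9.05% of all tested rows were higher and 4.57% lower. Without 1 library at a time, 4 to 8 were called higher and 0 lower; the 4 are without the third shTFAM library, the 5 and the 8 without the second and the first, and 6, 6 and 7 are without the first, the second and the third shCtrl library. Over all tested rows, 5.73% to 9.06% were higher and 2.07% to 4.98% lower in these fits. With no filter on low values 5 were higher, against 4.61% of all rows tested there, and 0 were lower, against 2.29%. With counts outside mitochondrial DNA as the library size, 6 were higher and 1 was lower, and over all tested rows 1198 (8.15%) were higher and 1771 (12%) lower, against 1661 and 969 with TMM factors.

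**Figure D3:**
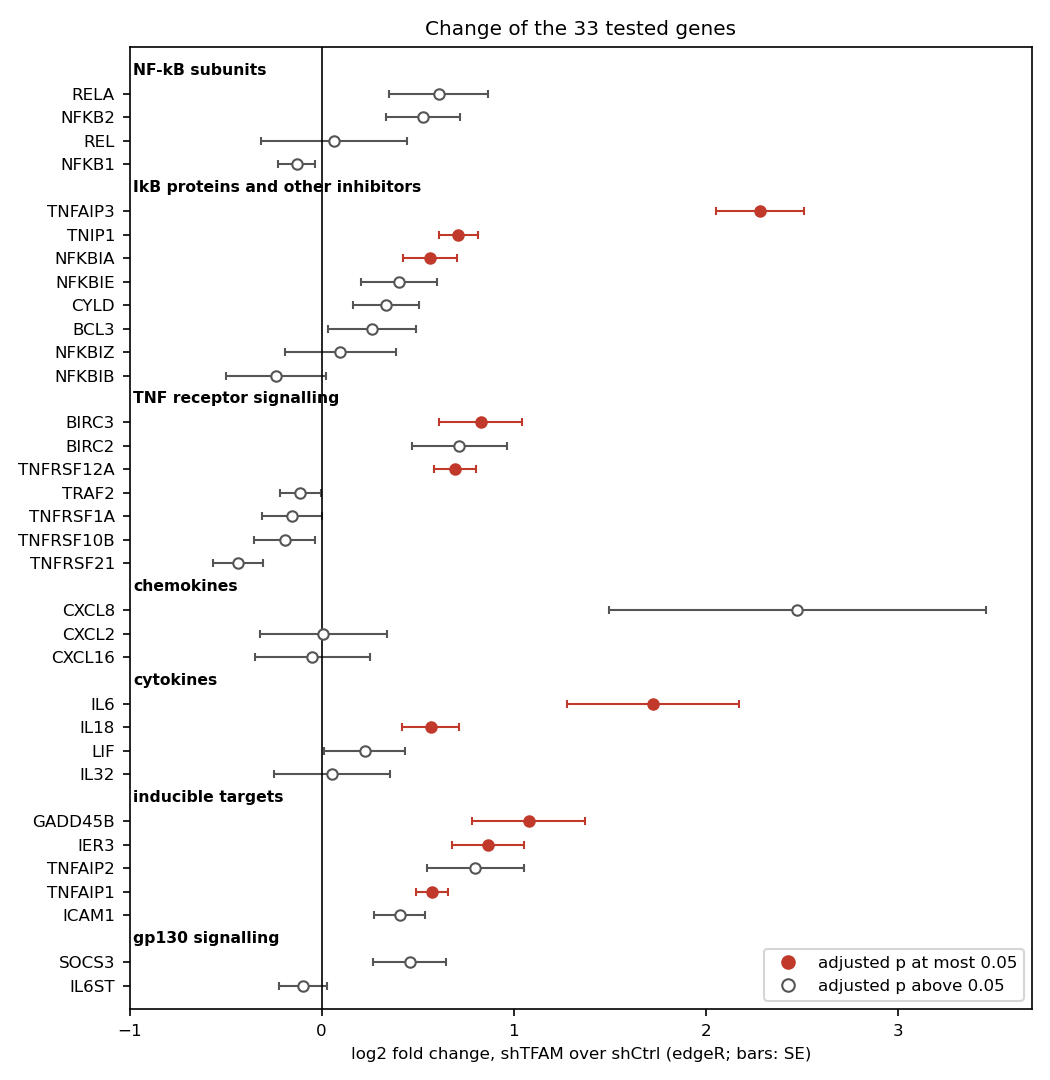
Log2 fold change of the 33 tested genes, shTFAM over shCtrl, from edgeR, with bars for the SE and filled points for an adjusted p of at most 0.05. The 10 filled points all lie right of 0, and CXCL8 has the widest bar.

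**Figure D4:**
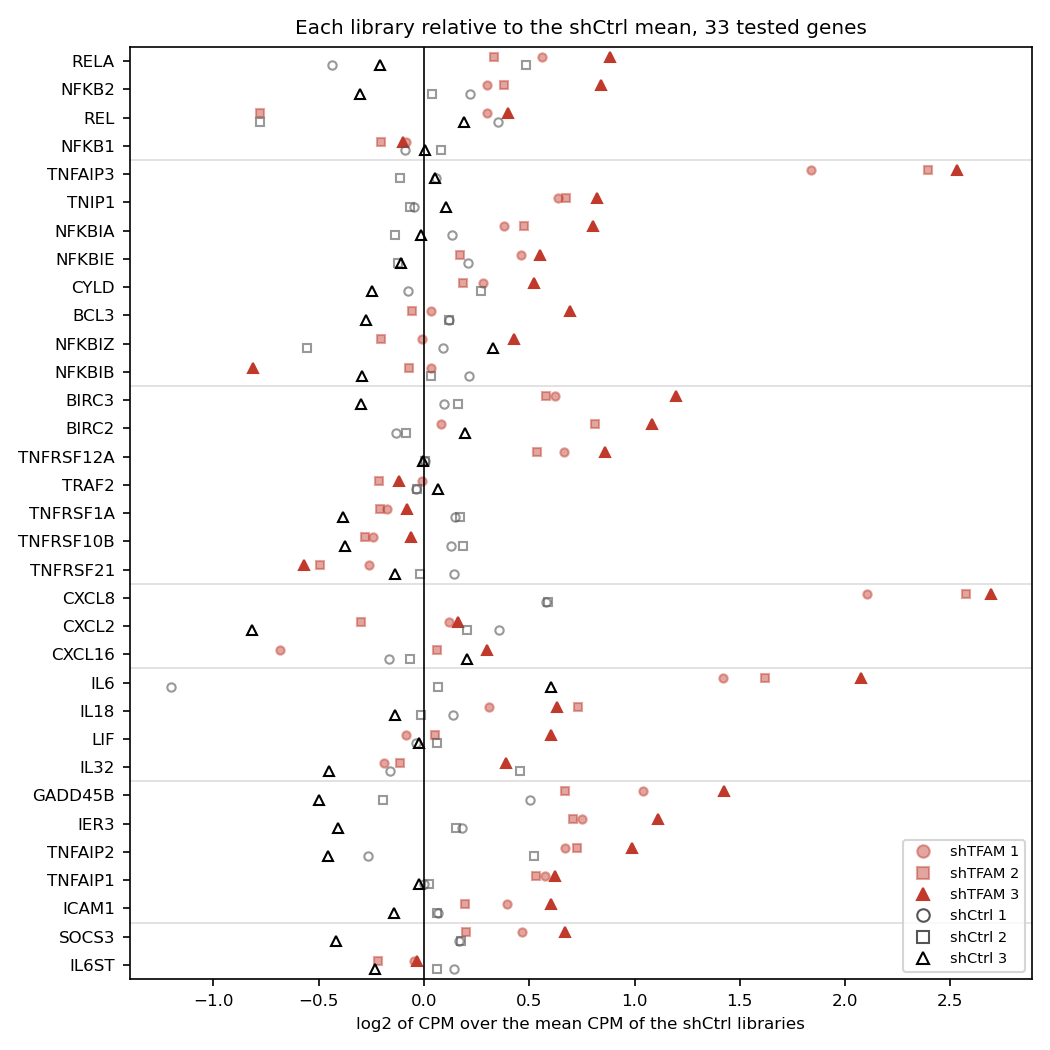
Log2 of each library's CPM over the mean CPM of the shCtrl libraries for the 33 tested genes, with the third library of each group drawn in full colour; the third shCtrl library had no CXCL8 count and is not drawn there. Filled triangles of the third shTFAM library lie furthest right of their group in 28 of 33 genes.

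The NF-kB subunits did not pass the test. RELA, which carries the main activation domain, stood at 69.0, 58.9 and 86.4 CPM in shTFAM and at 34.5, 65.4 and 40.4 CPM in shCtrl. Its second shCtrl library lay within the shTFAM range (log2 fold change 0.61, SE 0.257, adjusted p = 0.141), and without that library the value was 0.93 (adjusted p = 0.0416). Without any other single library RELA was not called (adjusted p = 0.149 to 0.339). NFKB2, the p100 precursor of the alternative pathway and itself an NF-kB target, stood at 38.0, 40.1 and 55.2 CPM in shTFAM and at 35.9, 31.6 and 24.9 CPM in shCtrl. Its groups did not overlap, yet the adjusted p was 0.1004 (log2 fold change 0.53, SE 0.193). NFKB1, which encodes p105 and p50, had a log2 fold change of -0.13 (adjusted p = 0.383). RELB, the partner of p52, stayed under the testing minimum at 1.27 to 1.99 CPM in shTFAM and 0.993 to 2.09 CPM in shCtrl.

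REL, the c-Rel subunit, has a row that overlaps another on the same strand. It stood at 34.4, 16.3 and 36.8 CPM in shTFAM and at 35.7, 16.3 and 31.8 CPM in shCtrl, so the second library of each group was about the same low value. The overlapping row, AC010733, was high in those 2 libraries, at 4.26, 23.3 and 3.36 CPM in shTFAM and 2.86, 20.5 and 4.08 CPM in shCtrl. The sum of both rows was 38.7, 39.6 and 40.2 CPM in shTFAM and 38.5, 36.7 and 35.9 CPM in shCtrl. REL alone had a log2 fold change of 0.06 (adjusted p = 0.926).

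Of the 8 inhibitors, 3 (37.5%) rose, against 11.3% of all tested rows, and none of the others passed the test. The median log2 fold change of the 8 was 0.37. TNFAIP3 (chr6:137867214-137883312, hg38), which encodes the ubiquitin-editing enzyme A20, had 8.52, 12.5 and 13.8 CPM in shTFAM and 2.48, 2.20 and 2.47 CPM in shCtrl. Every shTFAM library stood far above every shCtrl library, and the shCtrl libraries were nearly level. The rise was 4.86-fold (log2 fold change 2.28, SE 0.228, edgeR adjusted p = 0.00258) and kept its call in all 16 alternatives that tested it. In level per length it remained a minor transcript, at 1.86 ± 0.396 FPKM in shTFAM and 0.407 ± 0.0305 FPKM in shCtrl (SD, n = 3 each).

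TNIP1 (chr5:151029945-151093577), an adaptor that binds A20 and ubiquitin chains, had 97.7, 100.03 and 111 CPM in shTFAM and 60.8, 60.0 and 67.5 CPM in shCtrl. The groups were well apart, with a log2 fold change of 0.71 (SE 0.1004, adjusted p = 0.00617) that kept its call in all 17 alternatives. NFKBIA (chr14:35401513-35404749), which encodes IkB-alpha and is a rapid target of NF-kB, had 55.8, 59.5 and 74.7 CPM in shTFAM and 47.0, 39.0 and 42.4 CPM in shCtrl. The groups did not overlap, and the third shTFAM library was the highest (log2 fold change 0.57, SE 0.141, adjusted p = 0.0358). The NFKBIA call ended without the second or the third shTFAM library (adjusted p = 0.0704 and 0.0748) and without the first, the second or the third shCtrl library (adjusted p = 0.0620, 0.110 and 0.0737). The log2 fold changes of NFKBIA without 1 library ran from 0.43 to 0.63. Of the 17 alternatives, 9 kept the NFKBIA call. With all libraries kept, it ended with no filter on low values (adjusted p = 0.0538) and with counts outside mitochondrial DNA as library size (adjusted p = 0.0572).

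The other inhibitors gave smaller values. NFKBIE, another IkB protein, had a log2 fold change of 0.40 (adjusted p = 0.195). CYLD, a deubiquitinase, had 0.34 (adjusted p = 0.208). BCL3, a nuclear IkB protein, had 0.26 (adjusted p = 0.459), with the third shTFAM library at 32.1 CPM and the other two at 20.4 and 19.1 CPM. NFKBIZ, an atypical nuclear IkB protein, had 0.10 (adjusted p = 0.841); NXPE3, a gene on the same strand, overlaps its row. NFKBIB, which encodes IkB-beta, had -0.24 (adjusted p = 0.558). SIRT2 overlaps NFKBIB on the opposite strand, with 6036 counts over all libraries against 2576, and whether counting used the strand is not known.

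Of 7 tested genes of TNF receptor signalling, TNFRSF12A and BIRC3 (28.6%) rose, against 11.3% of all tested rows. The median log2 fold change of the 7 was -0.11. TNFRSF12A (chr16:3018445-3022383), the receptor for the cytokine TWEAK, had 67.3, 61.5 and 77.0 CPM in shTFAM and 42.5, 42.5 and 42.2 CPM in shCtrl. The shCtrl libraries were level and all shTFAM libraries lay above them (log2 fold change 0.70, SE 0.110, adjusted p = 0.00884, called in all 17 alternatives). BIRC3 (chr11:102317450-102339403), which encodes the ubiquitin ligase cIAP2, had 23.6, 23.0 and 35.2 CPM in shTFAM and 16.4, 17.2 and 12.5 CPM in shCtrl. The groups did not overlap (log2 fold change 0.83, SE 0.214, adjusted p = 0.0394), with a gap carried partly by the third library of each. Without any 1 of the 6 libraries, its adjusted p lay between 0.0595 and 0.0887 and its log2 fold change between 0.60 and 0.94. Of the 16 alternatives that tested BIRC3, 5 kept the call. With all libraries kept, it ended with no filter on low values and with counts outside mitochondrial DNA as library size. It also ended with limma on log2(FPKM + 1) and on log2(FPKM + 0.1).

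BIRC2, which encodes cIAP1, lies 7.8 kb from BIRC3 on chromosome 11. It had 39.9, 66.4 and 79.9 CPM in shTFAM and 34.4, 35.5 and 43.3 CPM in shCtrl. Only the first shTFAM library lay within the shCtrl range (log2 fold change 0.72, SE 0.247, adjusted p = 0.0861), and without it the value was 0.94 (adjusted p = 0.0185). Without any other single library BIRC2 was not called (adjusted p = 0.109 to 0.225). With all libraries kept, DESeq2 called BIRC2 (adjusted p = 0.0261), and no other alternative did.

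TNFRSF1A, the main TNF receptor, had 128, 125 and 137 CPM in shTFAM and 160.2, 163 and 111 CPM in shCtrl. TNFRSF10B, a receptor for the death ligand TRAIL, had 135, 132 and 153 CPM in shTFAM and 175, 182 and 123 CPM in shCtrl. In both genes the third shCtrl library lay below the shTFAM libraries and the other two lay above them, with log2 fold changes of -0.15 (adjusted p = 0.530) and -0.19 (adjusted p = 0.435). With shTFAM 3 and shCtrl 3 left out, the log2 fold changes were -0.35 (adjusted p = 0.0384) for TNFRSF1A and -0.42 (adjusted p = 0.0277) for TNFRSF10B. Without 1 library at a time neither was called (adjusted p = 0.0515 to 0.865 and 0.0575 to 0.782). RHOBTB2 overlaps TNFRSF10B on the opposite strand, with 36589 counts over all libraries against 44157 for TNFRSF10B. Whether counting used the strand is not known. TNFRSF21, another death-domain receptor, had 30.0, 25.5 and 24.2 CPM in shTFAM and 39.6, 35.5 and 32.7 CPM in shCtrl. It was the 1 tested gene of the list whose shTFAM libraries all lay below (log2 fold change -0.43, SE 0.130, adjusted p = 0.0592). It was called lower in 6 of the alternatives, among them DESeq2 (adjusted p = 0.0219) and limma on log2(FPKM + 1) (adjusted p = 0.0456). TRAF2, the adaptor that recruits the cIAP proteins, had a log2 fold change of -0.11 (adjusted p = 0.507), and TRAF1, its inducible relative, stayed under the testing minimum at 1.71 to 2.30 CPM in shTFAM and 0.649 to 1.81 CPM in shCtrl.

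**Figure D5:**
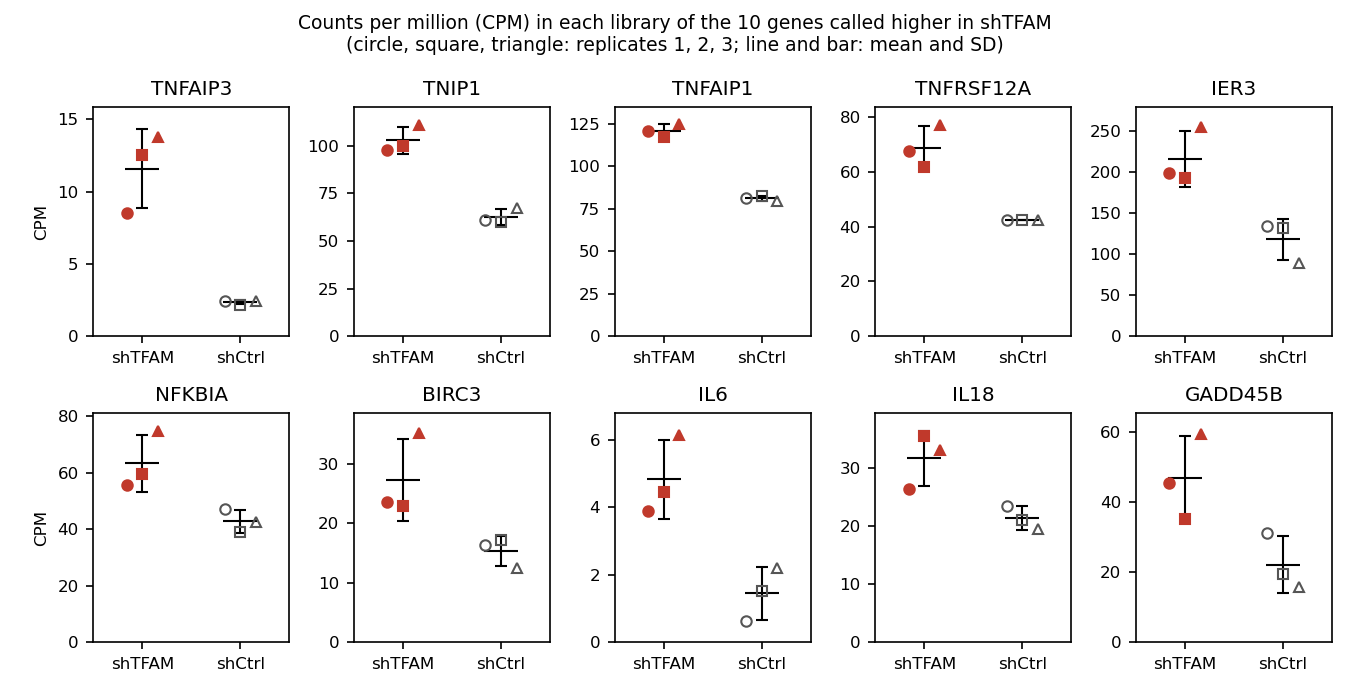
CPM of the 10 genes called higher in shTFAM, on axes from 0, with 1 symbol per library and a line and bar for the mean and SD of 3 libraries. In every panel all shTFAM points lie above all shCtrl points, with the widest gap in proportion for TNFAIP3.

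IL6 and IL18 rose among the 4 tested cytokines, where 11.3% of all tested rows rose. IL6 (chr7:22725884-22732002), which activates STAT3 through gp130, had 3.89, 4.46 and 6.13 CPM in shTFAM and 0.631, 1.52 and 2.21 CPM in shCtrl. The lowest shTFAM library stood above the highest shCtrl library, and the shCtrl libraries spread widely. The rise was 3.31-fold (log2 fold change 1.73, SE 0.447, adjusted p = 0.0394). The IL6 call ended without the first, the second or the third shTFAM library (adjusted p = 0.0661, 0.0821 and 0.111) and without the first or the second shCtrl library (0.0556 and 0.101), and the log2 fold change stayed between 1.36 and 2.15. With all libraries kept, it ended with no filter on low values (adjusted p = 0.0572). Of the 16 alternatives that tested IL6, 9 kept the call.

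IL18 (chr11:112143253-112164093), a cytokine made as an inactive precursor that caspase-1 cuts, had 26.4, 35.5 and 33.1 CPM in shTFAM and 23.5, 21.1 and 19.4 CPM in shCtrl. The groups did not overlap, by a narrow margin between the first libraries (log2 fold change 0.57, SE 0.149, adjusted p = 0.0404). The IL18 call ended without the second or the third shTFAM library (adjusted p = 0.121 and 0.106) and without the first, the second or the third shCtrl library (0.0720, 0.111 and 0.0918), with log2 fold changes of 0.48 to 0.67. With all libraries kept, it ended with no filter on low values, with library totals, with counts outside mitochondrial DNA and with both limma fits. Of the 17 alternatives, 6 kept the IL18 call. LIF, which also signals through gp130, had a log2 fold change of 0.22 (adjusted p = 0.489), and IL32 had 0.05 (adjusted p = 0.923).

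The alarm cytokines were below the testing minimum. IL1B had 0, 16 and 16 counts in shTFAM and 0 counts in every shCtrl library, and TNF had 0, 8 and 31 counts in shTFAM and 8, 0 and 19 counts in shCtrl. IL1A ran from 0.238 to 1.00 CPM in shTFAM and from 0.226 to 0.409 CPM in shCtrl. None of the 3 was tested, and a fit without the filter on low values called none of them (adjusted p = 0.179 for IL1B, 0.932 for TNF and 0.415 for IL1A).

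Of the 9 chemokines, 3 were tested and none passed. CXCL8 (chr4:73740541-73743716), the neutrophil attractant interleukin-8, had 129, 173 and 242 counts in shTFAM and 43, 50 and 0 counts in shCtrl. As CPM these were 2.79, 3.86 and 4.19 in shTFAM and 0.970, 0.975 and 0 in shCtrl, so every shTFAM library stood above every shCtrl library. The log2 fold change was 2.48 with an SE of 0.981 (adjusted p = 0.122). Without the third shCtrl library, the 1 with no count, it was 1.88 (adjusted p = 0.0166). Without any other single library CXCL8 was not called (adjusted p = 0.167 to 0.238). With all libraries kept, limma called CXCL8 on log2(FPKM + 1) (adjusted p = 0.0158) and on log2(FPKM + 0.1) (adjusted p = 0.0484). DESeq2 did not (adjusted p = 0.213), and 4 of the 16 alternatives that tested CXCL8 called it. CXCL8 is 1 of 14 tested rows with no count in 1 library and at least 40 in each of the other 5, and in 6 of the 14 the library without a count is the third shCtrl library.

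CXCL2, another neutrophil attractant, had 4.26, 3.19 and 4.40 CPM in shTFAM and 5.03, 4.52 and 2.23 CPM in shCtrl, and its groups overlapped (log2 fold change 0.01, SE 0.331, adjusted p = 0.988). CXCL3, its close copy on the same chromosome, stayed at 0.324 to 0.623 CPM in shTFAM and 0.312 to 0.834 CPM in shCtrl. Since CXCL1, CXCL2 and CXCL3 are near copies, reads may be split between their rows or dropped. CXCL16, a membrane-bound chemokine, had a log2 fold change of -0.05 (adjusted p = 0.931). MED11 overlaps CXCL16 on the opposite strand, with 3450 counts over all libraries against 842, and whether counting used the strand is not known.

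CCL2, the monocyte attractant, had 0.562, 0.335 and 0.0693 CPM in shTFAM and 0.699, 0.721 and 1.01 CPM in shCtrl, with no overlap between the groups, but was too low to be tested. The fit without a filter gave -1.34 on the log2 scale (adjusted p = 0.325). CCL20 had 12 counts in the third shTFAM library and 0 in the other five. CCL28 stood at 0.821 to 1.00 CPM in shTFAM and 0.892 to 1.29 CPM in shCtrl.

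All 5 inducible targets had higher values in every shTFAM library than in any shCtrl library, against 22.1% of all tested rows. Of the 5, 3 were called higher, against 11.3% of all tested rows. TNFAIP1 (chr17:28335602-28347009), an adaptor of a cullin ubiquitin ligase first found as a TNF-induced gene, had 121, 117 and 125 CPM in shTFAM and 81.0, 82.5 and 79.7 CPM in shCtrl. Both groups were tight (log2 fold change 0.58, SE 0.0827, adjusted p = 0.00636), and all 17 alternatives kept the call. POLDIP2 overlaps TNFAIP1 on the opposite strand with 5706 to 6638 counts in shTFAM and 6641 to 8818 counts in shCtrl, and the sources used here do not say whether counting used the strand.

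IER3 (chr6:30743199-30744548) had 198, 192 and 255 CPM in shTFAM and 134, 131 and 88.8 CPM in shCtrl. The third library was the extreme of each group (log2 fold change 0.87, SE 0.188, adjusted p = 0.0233). Its call ended without the second shCtrl library (adjusted p = 0.0520) and without the third shTFAM library (adjusted p = 0.0674), and 15 of the 17 alternatives kept it. GADD45B (chr19:2476122-2478259), a stress sensor induced by NF-kB that restrains JNK signalling, had 45.6, 35.2 and 59.5 CPM in shTFAM and 31.3, 19.4 and 15.7 CPM in shCtrl. The groups did not overlap, and both spread widely (log2 fold change 1.08, SE 0.293, adjusted p = 0.0452). The GADD45B call ended without any 1 of the shTFAM libraries (adjusted p = 0.0919, 0.0564 and 0.129) and without the second or the third shCtrl library (0.125 and 0.0979), with log2 fold changes of 0.87 to 1.40. With all libraries kept, it ended with no filter on low values, with library totals, with counts outside mitochondrial DNA and with both limma fits. Of the 17 alternatives, 6 kept the GADD45B call.

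TNFAIP2, a TNF-induced gene known for tubular membrane protrusions, had 173, 179 and 215 CPM in shTFAM and 90.3, 156 and 79.1 CPM in shCtrl. The second shCtrl library came close to the shTFAM range (log2 fold change 0.80, SE 0.253, adjusted p = 0.0685). Without that library the value was 1.16 (adjusted p = 0.0157). Without any other single library TNFAIP2 was not called (adjusted p = 0.112 to 0.179). With all libraries kept, DESeq2 called TNFAIP2 (adjusted p = 0.0111), and no other alternative did. ICAM1, the leukocyte adhesion molecule, had 59.8, 52.2 and 69.1 CPM in shTFAM and 47.8, 47.5 and 41.3 CPM in shCtrl, with a log2 fold change of 0.41 (SE 0.132, adjusted p = 0.0740; DESeq2 adjusted p = 0.0446).

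Neither gp130 gene passed the test. SOCS3 had 188, 156 and 217 CPM in shTFAM and 153, 154 and 102 CPM in shCtrl. The second shTFAM library was almost level with the first and the second shCtrl libraries (log2 fold change 0.46, SE 0.191, adjusted p = 0.137). IL6ST, which encodes gp130 itself, had a log2 fold change of -0.10 (adjusted p = 0.629).

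Beyond the 44 genes, 224 other genes of the pathway were listed in 6 groups, and 137 were tested. These lists too were chosen with earlier results of these data known, so their shares describe the lists and do not test the pathway. Of the 137, 33 (24.1%) rose, against 11.3% of all tested rows, and 4 fell, against 6.59%; the median log2 fold change was 0.27. In fits without 1 library, 5.73% to 9.06% of all tested rows were higher and 2.07% to 4.98% lower. Of the 137, 18 to 32 were higher in these fits and 0 to 3 were lower. The lowest count of higher genes was without the second shCtrl library, and with the first left out it was 19; counts of lower genes were 1, 1 and 0 without the first, the second and the third shTFAM library and 1, 0 and 3 without the first, the second and the third shCtrl library. The group of other cytokines and chemokines, with 6 of 40 genes tested, is not described further. All genes of the other 5 groups that are named as called had values in CPM that did not overlap.

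Signal transducers between receptor and IkB mostly passed no test. Of 35 tested kinases and adaptors, 3 (8.57%) rose, against 11.3% of all tested rows, and 1 fell, against 6.59%. Their median was 0.12. TRADD, the adaptor of the TNF receptor, had 12.4, 11.8 and 12.8 CPM in shTFAM and 7.55, 7.52 and 7.54 CPM in shCtrl (log2 fold change 0.71, adjusted p = 0.0154). TRAF7 and TAB3 rose by 0.46 and 0.39 on the log2 scale (adjusted p = 0.0207 and 0.0332), and the ubiquitin-conjugating enzyme gene UBE2N, which makes lysine-linked signalling chains, fell (-0.56, adjusted p = 0.0423). Each of these 4 calls ended without some single libraries: TRADD without the first or the second shCtrl library, TRAF7 without those or the first or the third shTFAM library, TAB3 without any but the third shCtrl library, and UBE2N without any 1 of the 6.

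Of the receptors for cytokines and chemokines, 8 of 21 tested (38.1%) were higher, against 11.3% of all tested rows. In that group 1 was lower, against 6.59%, and the median was 0.39. CXCR4, the receptor for CXCL12, had 135, 137 and 193 CPM in shTFAM and 45.8, 54.8 and 65.8 CPM in shCtrl (log2 fold change 1.48, adjusted p = 0.00465). ACKR3, which scavenges the same ligand, had 117, 153 and 292 counts in shTFAM and 0, 4 and 9 counts in shCtrl (adjusted p = 0.00648). IL1RAP, the shared chain of the interleukin-1 receptor, had 26.1, 25.6 and 36.9 CPM in shTFAM and 10.8, 11.0 and 8.39 CPM in shCtrl (log2 fold change 1.55, adjusted p = 0.00446). IL10RB rose as well (1.304, adjusted p = 0.0118), and IL27RA fell (-0.48, adjusted p = 0.0486), a call lost without any 1 of the 6 libraries. The median log2 fold change of 9 tested TNF superfamily genes was 0.08. Of the 9, 3 (33.3%) rose, against 11.3% of all tested rows. They were TNFRSF10D, a decoy receptor for TRAIL (0.81, adjusted p = 0.0253), TNFRSF11B, the decoy receptor osteoprotegerin (0.69, adjusted p = 0.0224), and the ligand gene TNFSF9 (0.55, adjusted p = 0.0161). All 3 lost their call without the first or the second shCtrl library, TNFRSF10D also without the second shTFAM library, and TNFRSF11B also without any 1 of the shTFAM libraries.

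The median log2 fold change of 20 tested JAK and STAT genes was 0.17. Of the 20, 2 (10%) rose, against 11.3% of all tested rows, and none fell, against 6.59%. Both encode SOCS proteins: SOCS6 (0.78, adjusted p = 0.00590) and SOCS5 (0.42, adjusted p = 0.0309), the SOCS5 call ending without any 1 library except the third shCtrl library.

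Of the other NF-kB-inducible genes, 16 of 46 tested (34.8%) rose, against 11.3% of all tested rows. In that group 2 fell, against 6.59%, and the median was 0.43. The coagulation starter F3 (1.58, adjusted p = 0.00380), the transcription factor gene KLF6 (1.46, adjusted p = 0.00452) and ZC3H12A (1.19, adjusted p = 0.00776) were among those that rose. ZC3H12A encodes the ribonuclease regnase-1, which degrades IL6 mRNA. CD83 (-1.13, adjusted p = 0.0231) and RIPK2, the kinase downstream of NOD receptors (-0.65, adjusted p = 0.0249), fell. CD83 lost its call without the second or the third shTFAM library or the first or the second shCtrl library, and RIPK2 without the first or the third shTFAM library or the first or the second shCtrl library. Many of these genes, F3 among them, are also targets of other pathways.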

How the data were processed

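Poly(A) RNA was made into strand-marking dUTP libraries, per the labels' protocols. Tools listed in the submitters' processing notes are HISAT2 2.0.4, StringTie 1.3.4d, cutadapt 1.9 and Bowtie 0.12.2, without their roles, beside 2 builds, hg38 and mm8. Which tool counted the reads, and with what strand setting, is not given in these sources. The authors deposited whole-number counts and FPKM per Ensembl gene, per the file headers; both come from the same counts (SD of their log2 ratio between libraries at most 0.00267), and a count of 0 has an FPKM of 1e-04. Columns of counts and FPKM were matched to the libraries by title, and replicates were numbered in order of deposit.

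The deposited counts were tested with edgeR 4.0.16 (quasi-likelihood test, TMM factors, rows with a mean FPKM of at least 0.5, 14708 rows; common biological coefficient of variation 0.251) in R 4.3.3, with Benjamini-Hochberg adjustment over those rows and calls at 0.05. Alternatives used DESeq2 1.42.0, limma 3.58.1 with a pseudocount of 1 or 0.1, other filters and scalings, and fewer libraries. All 44 genes are named; genes called, and uncalled ones at 20 FPKM or more or with a log2 fold change of 1 or more in size, get values per library. Some further genes (RELA, NFKB2, REL, BIRC2, TNFRSF21, ICAM1, CXCL2, CCL2, IL1B and TNF) were chosen for such values after these were seen. Of each other pathway list, up to 4 called genes with the smallest p are named; some are not reported here. The genes and lists were chosen with earlier results of these data known. Count intervals and floors cover counting error only.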

Additional observations from a re-analysis of the deposited data

How the results depend on the processing

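Direction and call were recomputed under 17 alternatives. Over the 33 tested genes, 448 of 548 values kept both, 50 kept their direction and lost the call, 18 kept their direction and gained it, and 32, from 7 uncalled genes, changed sign. The genes called higher numbered 10, and 5 with no filter on low values, 6 with counts outside mitochondrial DNA as library size, 6 with shTFAM 3 and shCtrl 3 left out, and 4 to 8 without 1 library. Over all tested rows the share called higher was 11.3%, and in those fits 4.61%, 8.15%, 9.05% and 5.73% to 9.06%. The genes called lower numbered 0, and 1 with a minimum of 5 FPKM, with library totals, with counts outside mitochondrial DNA, with DESeq2, with limma on log2(FPKM + 1) and with limma on log2(FPKM + 0.1), 2 with shTFAM 3 and shCtrl 3 left out, and 0 to 0 without 1 library. Of the other pathway genes, 33 were higher, and 19 with a minimum of 5 FPKM (15.5% of all rows tested there) and 18 to 32 without 1 library. Of these, 4 were lower, and 6 with a minimum of 5 FPKM, 6 with library totals, 8 with counts outside mitochondrial DNA, 9 with DESeq2, 7 with either limma fit, 6 with shTFAM 3 and shCtrl 3 left out, and 0 to 3 without 1 library. Over all tested rows the share called lower was 6.59%. It was 11.3% with a minimum of 5 FPKM, 8.61% with library totals and 12% with counts outside mitochondrial DNA. DESeq2 gave 11.4%, and limma gave 9.09% at a pseudocount of 1 and 8.95% at 0.1. Without shTFAM 3 and shCtrl 3 it was 4.57%, and without 1 library 2.07% to 4.98%. TFAM lost its call with no filter (-0.42), with shTFAM 3 and shCtrl 3 left out (-0.30) and without 1 library (-0.48 to -0.36). Fewer samples or more rows tested are part of the construction of those fits; the cause of the other changes was not tested.

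Sign changes were as follows, as log2 fold changes. With library totals, REL had -0.014, CXCL2 -0.063 and IL32 -0.022. With counts outside mitochondrial DNA, which moved the median of all rows by -0.13, REL had -0.073, NFKBIZ -0.037, CXCL2 -0.13 and IL32 -0.087. With limma, REL had -0.016 at a pseudocount of 1 and -0.025 at 0.1, CXCL2 -0.019 and -0.0057, and IL32 -0.0039 at 1. With shTFAM 3 and shCtrl 3 left out, REL had -0.034, BCL3 -0.13, CXCL2 -0.36, IL32 -0.33 and LIF -0.026. Without 1 library, the ranges were -0.21 to 0.35 for REL, -0.12 to 0.29 for NFKBIZ, -0.012 to 0.40 for BCL3, -0.28 to 0.21 for CXCL2, -0.26 to 0.17 for CXCL16, -0.15 to 0.35 for IL32 and -0.013 to 0.34 for LIF. No paired analysis was possible because the titles give the groups no shared replicate numbers. CXCL1, CX3CL1, CCL20, IL1B and TNF each had no count in at least 1 library, and whether depth limits them was not tested. The others under 0.5 FPKM were left out by that minimum.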

Other observations

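Genes outside the 44 were also counted by the text of the gene ontology terms deposited with each row, a choice made after the results were seen. The other pathway genes described above were kept in where their terms matched. These shares are therefore not separate from the counts of those genes. Of 361 tested genes with NF-kappaB in a term, 54 (15.0%) were higher in shTFAM and 17 (4.71%) lower. Of 295 with inflammatory response, 78 (26.4%) were higher and 14 (4.75%) lower, and of 52 with cytokine activity, 19 (36.5%) were higher and 4 (7.69%) lower. Of 110 with TNF-mediated signalling, 16 (14.5%) were higher and 1 (0.909%) lower. Over all tested rows these shares were 11.3% and 6.59%. The median log2 fold change was 0.03 for NF-kappaB, 0.17 for inflammatory response, 0.43 for cytokine activity and -0.05 for TNF-mediated signalling. Over all tested rows it was -0.02.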
